A study of Mus musculus with 6 samples.

Results

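Phgr1, Gkn2, Psca and Hnf4a are 4 genes known from the stomach and gut that were measured here in sorted lung tumour cells. They were picked by symbol, as 4 of the 31055 features of the pooled count matrix, because earlier results of these data placed them unevenly across classes of cells. Their levels in the classes and in cells with GFP or Stk11 transcripts are therefore given as a description, with no test. Each symbol matched 1 row of the feature list.

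The tumours came from mice that carried Lkb1XTR/XTR and Rosa26LSL-tdTomato among their alleles, and were started with a lentivirus that expresses Cre. In the XTR allele a gene trap with GFP stops Stk11, the gene for LKB1, once Cre has inverted it. FLPo-ERT2 removes the trap when tamoxifen is given. The 3 mice labelled Restored carried Rosa26LSL-tdTomato/FLPo-ERT2 and received tamoxifen for 2 weeks, 20 weeks after tumour initiation, as doses of 4 mg in 200 µL of corn oil. Of the 3 mice labelled NonRestored, 1 without the FLPo-ERT2 allele received tamoxifen, 1 without it received vehicle, and 1 with it received vehicle. All 6 mice thus shared the XTR allele of Lkb1 and the tdTomato reporter. The lentivirus delivers Cre to whatever lung epithelial cells it reaches, so the labels do not fix the cell of origin. Cells positive for tdTomato and negative for CD45, CD31, F4/80 and Ter119 were sorted and profiled by 10x 3′ single-cell RNA sequencing, which counts unique molecular identifiers (UMIs) per gene and cell.

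The matrix pools all mice in 1 table with no map from cells to mice, so restored and non-restored mice are not compared here and cell barcodes shared between libraries could not be counted. Of 16017 barcodes, 12183 were kept, with at least 500 genes and at most 20% of UMIs from mitochondrial (mt-) genes. They held a median of 19348 UMIs, and 99.3% of them held a TdTomato UMI. Classes were set in UMIs per 10000 of the cell. Alveolar type II (ATII) cells had Sftpc at 500 or more, Hopx under 2 and Krt8 plus Krt18 under 50, and were split by Lyz2 at 100 into 3429 Lyz2-high and 3546 Lyz2-reduced cells. Alveolar type I (ATI) cells, 956 in number, had Hopx at 15 or more and the same keratin limit. The 1183 keratin-high cells had Krt8 plus Krt18 at 50 or more, and 3069 cells met none of these limits. Median depth was 24514 UMIs in Lyz2-high, 18716 in Lyz2-reduced, 11796.5 in ATI and 23490 in keratin-high cells.

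The names were checked on markers other than Sftpc, Lyz2, Hopx, Krt8 and Krt18, which set the classes. The 10 other ATII markers summed to 51009 CPM (UMIs of the genes per 1000000 UMIs of the class) in ATII and 13549.8 in keratin-high cells, and the 11 other ATI markers to 15865 in ATI and 2897 in ATII cells. The 6 other keratin-high markers were each at least 2-fold higher in keratin-high than in ATII cells, of which Tnip3 reached 1 CPM only through keratin-high cells. These are ranges of a score and not sharp types: 676 cells lay within 20% of the keratin limit, 916 within 20% of the Lyz2 limit, 286 of the Hopx limit and 579 of the Sftpc limit.

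Phgr1 encodes a small protein rich in proline, histidine and glycine that is made by gut epithelium. Gkn2 encodes gastrokine 2, a protein secreted by the surface mucous cells of the stomach, and Psca encodes a membrane-anchored protein of the Ly6 family found in stomach, bladder and prostate epithelium. Hnf4a encodes a nuclear receptor that acts as a transcription factor in gut and liver epithelium, upstream of many digestive-tract genes. Normal lung epithelium shares its foregut origin with the stomach and keeps its own identity through the transcription factor Nkx2-1. In mouse models of lung adenocarcinoma, loss of Nkx2-1 is known to be followed by expression of stomach genes.

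On build GRCm38 (GENCODE M21), Phgr1 spans chr2:118772769-118778165, Gkn2 chr6:87373357-87379497, Psca chr15:74714839-74717069 and Hnf4a chr2:163506808-163572910, each on the plus strand. Hnf4a has 5 annotated transcripts and overlaps the antisense gene Hnf4aos, which held 16 UMIs in all cells kept beside 312 of Hnf4a. No other gene overlaps the remaining 3 members. Promoter windows from RefSeq (GRCm38.p6, mm10; 250 bases before to 50 after a start) were available for 3 of the 4 members.

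The stretches before the first annotated exon of the most widely detected member, Phgr1 (chr2:118772524-118772768), and of the most unevenly held one, Gkn2 (chr6:87373115-87373356), are shown 5′ to 3′ on the plus strand, since the 2 genes shared cells more often than the product of their shares. Capitals mark matches to the short motifs searched on both strands.
Phgr1: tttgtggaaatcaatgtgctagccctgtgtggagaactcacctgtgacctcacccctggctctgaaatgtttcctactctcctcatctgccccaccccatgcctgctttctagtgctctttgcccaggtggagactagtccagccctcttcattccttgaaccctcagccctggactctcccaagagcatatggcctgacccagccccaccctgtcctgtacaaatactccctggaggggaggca
Gkn2: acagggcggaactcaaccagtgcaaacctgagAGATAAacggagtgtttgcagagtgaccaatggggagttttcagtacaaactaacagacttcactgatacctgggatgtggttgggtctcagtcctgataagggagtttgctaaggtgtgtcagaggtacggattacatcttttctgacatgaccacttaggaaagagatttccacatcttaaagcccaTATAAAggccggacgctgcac

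The hepatocyte nuclear factor motif for HNF4 was searched as CAAAGTC, while that of the forkhead factors (FOXA) was taken as TGTTTAC. For zinc-finger factors of the Gata family the letters were AGATAA, and for the lung factor NKX2-1 they were CAAGTG. The motif used for the dimer AP-1 read TGANTCA, and the TATA box of core promoters read TATAAA. The capitals in Gkn2 are the Gata motif, 218 bases before the start, and the core promoter box, 29 bases before it. Of 32851 RefSeq windows of the same length, 11.2% held the Gata motif and 13.6% the box. The Phgr1 window held none of the 6 motifs. Hnf4a had 2 windows. The one at chr2:163506607-163506906 held the Gata motif, and the one at chr2:163546905-163547204 held none of the 6. The HNF4 motif, present in 4.44% of all windows, was in none of the 4 windows of these genes. A match is only a run of letters, and its absence says nothing of the factor.

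Hnf4a, the transcription factor among the members, was scarce outside keratin-high cells. Its level was 0.193 CPM (95% interval 0.112 to 0.308) in Lyz2-high ATII cells, 0.369 (0.243 to 0.536) in Lyz2-reduced ATII cells, 0.375 (0.122 to 0.874) in ATI cells and 7.04 (6.14 to 8.05) in keratin-high cells. Keratin-high cells thus stood above the other classes, while ATI and Lyz2-reduced cells could not be ordered, with a ratio of 1.02 and an interval of 0.306 to 2.68. All intervals are exact (Poisson for levels, conditional binomial for ratios, Clopper-Pearson for shares) and cover counting error only, not the spread between mice. The whole difference rests on few molecules, 216 UMIs in 89 of 1183 keratin-high cells against 44 UMIs in 33 of 6975 ATII cells.

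Gkn2 was also highest in keratin-high cells, over a wider range. It was at 16.8 CPM (15.9 to 17.7) in Lyz2-high, 56.7 (54.9 to 58.4) in Lyz2-reduced, 2.62 (1.83 to 3.65) in ATI and 415 (408 to 423) in keratin-high cells. Keratin-high was highest and ATI lowest, and no neighbours in the order of the 4 classes shared an interval. Counting error is a poor guide to this gene, however, because its UMIs sat in few cells, as described below. The excess was not found in cells with a Stk11 UMI and no GFP UMI, at 34.5 CPM in keratin-high and 36.2 in ATII cells. With GFP and no Stk11 the levels were 491 and 17.0, and with neither transcript 464 and 42.4.

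Psca, the surface protein, was the member in which ATI cells stood above ATII cells. It was at 2.61 CPM (2.28 to 2.97) in Lyz2-high, 9.67 (8.97 to 10.4) in Lyz2-reduced, 48.3 (44.7 to 52.2) in ATI and 153 (148 to 157) in keratin-high cells. From Lyz2-high through Lyz2-reduced ATII and ATI to keratin-high cells, each level was above the one before by more than its counting error.

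Phgr1 differed from the other 3 in being high in ATII cells. It was at 57.2 CPM (55.6 to 58.8) in Lyz2-high, 94.1 (91.8 to 96.3) in Lyz2-reduced, 12.1 (10.3 to 14.1) in ATI and 81.4 (78.3 to 84.7) in keratin-high cells. Lyz2-reduced ATII cells were highest and ATI cells lowest.

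**Figure D1:**
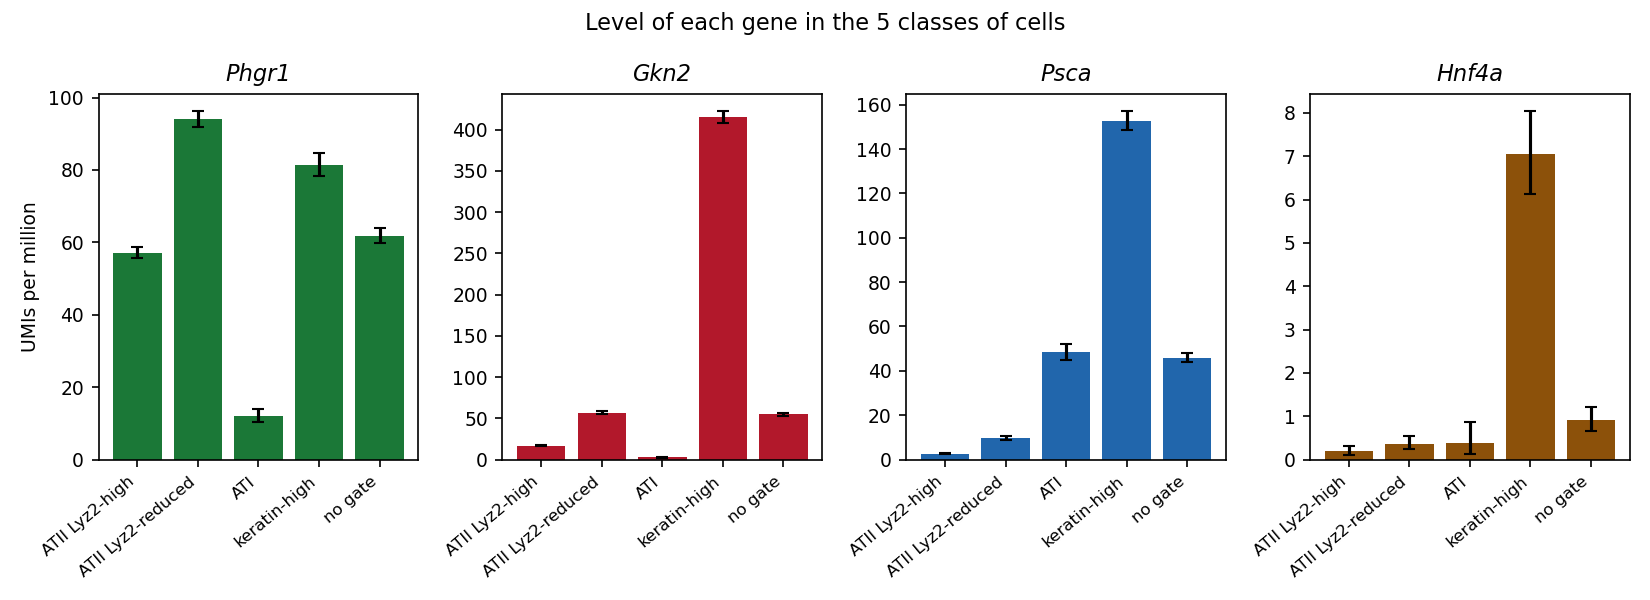
Level of Phgr1, Gkn2, Psca and Hnf4a in CPM (bars, each panel with its own scale from 0) in the 4 classes and in cells of no class; error bars are exact Poisson 95% intervals of the pooled counts. Gkn2, Psca and Hnf4a peak in keratin-high cells at 415, 153 and 7.04, whereas Phgr1 peaks in Lyz2-reduced ATII cells at 94.1.

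Set against ATII cells as a whole, keratin-high cells held 11.9 times as much Gkn2 (11.5 to 12.3), 26.3 times as much Psca (24.5 to 28.2) and 25.9 times as much Hnf4a (18.6 to 36.6). In all, 3 members passed 2-fold higher in this contrast, where 16.4% of the 12183 genes (by coincidence also the number of cells kept) at 1 or more CPM in either class did and 6.83% passed 2-fold lower. Since the members were chosen with this contrast in view, nothing is read from that count. Hnf4a reached the 1 CPM only through keratin-high cells. Its share in ATII cells was under the background limit, as given below, so the size of its ratio is not read. Phgr1 was 1.10 times as high (1.05 to 1.15), a log2 ratio of 0.14, while the median gene stood at 0.35. Relative to the median gene Phgr1 was lower in keratin-high cells by a log2 ratio of -0.21, and its direction also turned with cells weighted equally (-0.077) and with totals that leave out mt- genes and Sftpc (-0.12), so no direction is given for it.

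ATI cells held 6.12-fold less Phgr1 and 13.3-fold less Gkn2 than ATII cells, 8.32-fold more Psca (7.52 to 9.21), and 1.38 times as much Hnf4a with an interval from 0.426 to 3.46. The ATI shares of Phgr1 and Gkn2 after thinning were near background, as given below, so the sizes of their folds are not read. Of 12058 genes, 13.3% were at least 2-fold higher and 8.14% at least 2-fold lower in that contrast. Psca was thus the member that ATI and keratin-high cells had in common.

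Pooled over ATII cells, Phgr1, Gkn2 and Psca were higher where Lyz2, the lysozyme gene of mature ATII cells, was under its limit. For Phgr1 this did not hold in cells with GFP and no Stk11 UMI, at 134 CPM in Lyz2-reduced and 169 in Lyz2-high cells. With Stk11 and no GFP the levels were 44.3 and 18.3, and with neither 82.4 and 41.4. GFP was found in 32.6% of Lyz2-reduced and 17.5% of Lyz2-high cells. The ratio of Lyz2-reduced to Lyz2-high cells was 1.65 (1.59 to 1.71) for Phgr1, 3.38 (3.18 to 3.59) for Gkn2, 3.71 (3.19 to 4.32) for Psca and 1.91 (1.01 to 3.74) for Hnf4a. At least 2-fold higher were 3.43% of 11748 genes and at least 2-fold lower 0.451%, with the median gene at a log2 ratio of 0.21. The Hnf4a ratio rests on 27 against 17 UMIs, after thinning 2 cells of each class held it, and relative to the median gene its interval includes no difference, so no direction is given for it. For Gkn2, 1 Lyz2-reduced cell held 1723 of the 4150 UMIs of that class. Without it the class stood at 33.2 CPM.

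Across finer bins the members went up with keratin in different ways. In cells with Krt8 plus Krt18 under 5 per 10000, Gkn2 was at 7.55, Psca at 2.37, Hnf4a at 0.0901 and Phgr1 at 33.4 CPM. In the 294 cells with 100 to 200 per 10000, Gkn2 was at 625, Psca at 200.3, Hnf4a at 9.70 and Phgr1 at 93.3. In the 40 cells at 200 or more, Gkn2 was at 727, Psca at 396 and Phgr1 at 111. Hnf4a was at 4.74 there (1.54 to 11.1), from 5 UMIs. Psca climbed from bin to bin up to 122 at 40 to 50 and stayed there up to 100, and Phgr1 was highest at 130.2 in the bin from 25 to 40 and at 82.3 in the next. Gkn2 was uneven, at 188 in the bin from 25 to 40, 90.8 in the next and 140 in the one after, and without the cell with the most Gkn2 in each bin it was at 111, 61.2 and 94.3. In the lowest bin, under 5, it was then at 4.58.

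Levels just outside and just inside the keratin limit (40 to 50 against 50 to 60 per 10000) were 122 and 123 CPM for Psca, 82.3 and 87.4 for Phgr1, 90.8 and 140 for Gkn2 and 1.87 and 2.72 for Hnf4a. The intervals of Psca, Phgr1 and Hnf4a overlapped across the limit. Just under and just over the Lyz2 limit (80 to 100 against 100 to 120), Phgr1 was at 80.7 and 107, Gkn2 at 31.5 and 17.2, Psca at 6.60 and 5.14 and Hnf4a at 0.394 and 0.374. In each of these bins 1 cell held most of the Gkn2, 236 of 320 UMIs and 132 of 184, and without it the levels were 8.36 and 4.89. Phgr1 in those 2 bins ran against the trend of the whole range, which fell from 129 in cells with Lyz2 under 10 to 39.4 in the 157 cells at 400 or more, or to 24.1 without the cell there that held 71 of 178 UMIs. Psca fell along the same range from 17.1 to 0.664, the latter from 3 UMIs.

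**Figure D2:**
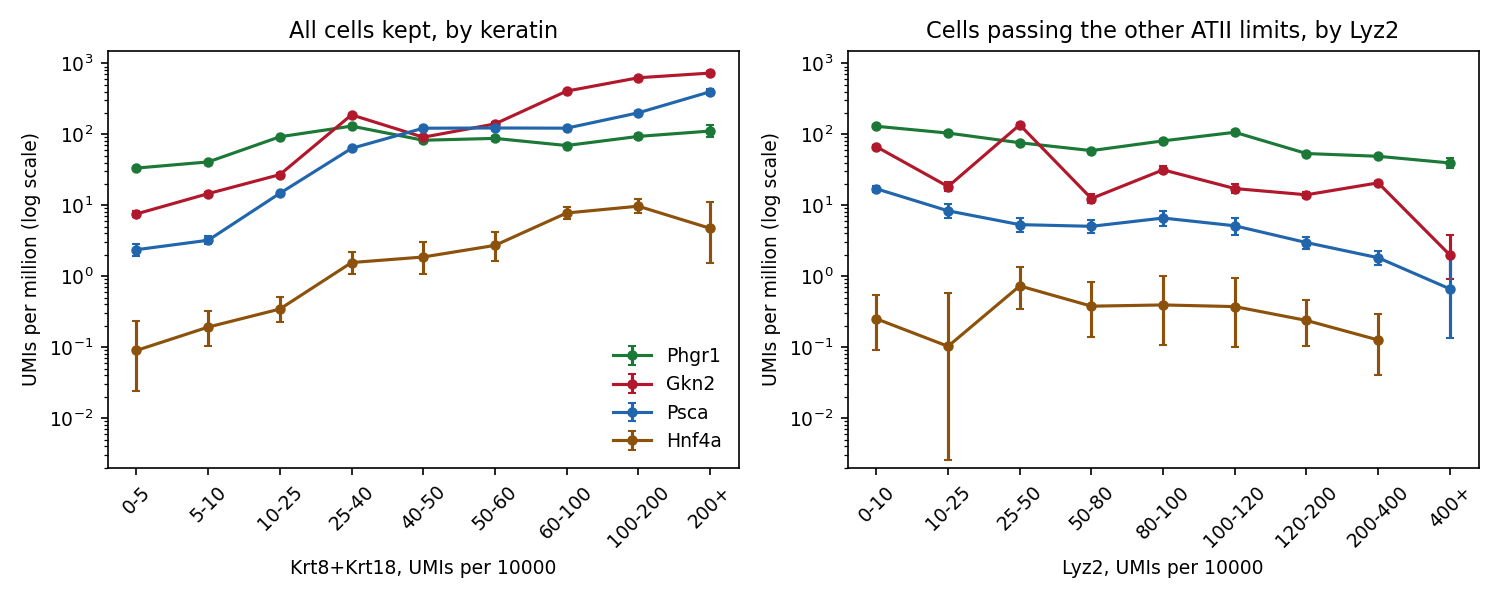
Level of the 4 genes (points, CPM, log axis) in bins of Krt8 plus Krt18 over all cells kept and in bins of Lyz2 over cells that meet the other ATII limits (both in UMIs per 10000); bars are exact Poisson 95% intervals, and Hnf4a is not drawn in the last Lyz2 bin, where it had no UMI. Gkn2, Psca and Hnf4a lie far higher at high keratin than at low, while Phgr1 is highest in the bin from 25 to 40, at 130.2, and drops to 82.3 in the next.

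Within keratin-high cells the members parted by the remaining alveolar genes. The 127 keratin-high cells that also had Hopx at 15 or more held 1.87 CPM of Gkn2 against 446 in the 1056 others. Phgr1 was at 7.49 against 87.0 and Hnf4a at 1.87 against 7.43 in the same 2 groups, where the lower Hnf4a value is 4 UMIs in 2 cells and is 0.948 without 1 of them. Psca was at 196 against 150, but in the Hopx group 1 cell held so many of its 418 UMIs that 316 were left without it. Without the top cell of each group Psca was at 149 and 145, and it was found in 29.1% against 38.4% of cells, so no direction is given for it. The keratin-high cells with an ATI gene thus held Psca with little Gkn2, as ATI cells did.

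The 165 keratin-high cells with Sftpc still at 500 or more held 40.5 CPM of Gkn2 against 479 in the 1018 others, 72.2 of Psca against 166, and 0.225 of Hnf4a against 8.20. Phgr1 was at 99.7 against 78.3. The Hnf4a value of 0.225 is 1 UMI, and the shares of cells with Gkn2 lay closer than its levels, at 14.5% against 19.0%. Levels of Gkn2 and Psca were thus higher in the keratin-high cells with less Sftpc, the surfactant protein C gene of ATII cells, and the level of Phgr1 in those with more.

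The share of cells with a UMI, taken after thinning each cell to 5000 UMIs, does not depend on how many UMIs a few strong cells hold. In keratin-high cells 12.8% held Phgr1, 12.6% Gkn2, 25.5% Psca and 1.93% Hnf4a (139, 137, 278 and 21 of 1090 cells). In ATII cells the shares were 11.7%, 1.74%, 2.33% and 0.0591%, and in ATI cells 1.66%, 0.595%, 9.75% and 0.238%. Before thinning, the shares in keratin-high cells were 25.5%, 18.3%, 37.4% and 7.52%.

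Free RNA can give a droplet a UMI of a gene its cell does not express. In the 273 cells of 5000 or more UMIs that carried immune, endothelial or fibroblast genes and no Epcam (median 13921 UMIs before that limit), the thinned share was 0.733% for Phgr1, 0.366% for Psca, and 0 for Gkn2 and Hnf4a, which allows up to 1.10%. The ATI shares of Gkn2 and Hnf4a and the ATII share of Hnf4a lay at or under that limit and are not read as expression. The share of Gkn2 in Lyz2-high ATII cells, at 1.06%, lay there too. Yet 20 of these cells held 10 or more Gkn2 UMIs, up to 422, while no reference cell held more than 1. Those few cells thus stood apart from the reference cells. Phgr1 in ATI cells, at 1.66% (0.913 to 2.78), overlapped the interval of the reference cells (0.0889 to 2.62) and is likewise not told apart from background. Before thinning it was in 4.29% (3.09 to 5.77) of ATI and 0.545% (0.0661 to 1.95) of reference cells. Psca in Lyz2-high ATII cells, at 1.36% (0.995 to 1.80), is not told apart either, where the reference interval was 0.00927 to 2.02. Psca in ATII cells as a whole (1.99 to 2.72) met that interval too. Hnf4a in keratin-high cells, at 1.93% (1.20 to 2.93), met its own reference interval, 0 to 1.34. Before thinning, Psca was in 4.02% (3.39 to 4.74) of Lyz2-high and 0.817% (0.169 to 2.37) of reference cells. Hnf4a was then in 7.52% (6.09 to 9.18) of keratin-high cells and in no reference cell (0 to 1.00). Reference cells were less deep than both of these classes. The low sides of the Lyz2 ratios of Gkn2 and Psca thus had thinned shares near background.

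The UMIs of the members were spread over very different numbers of cells. Phgr1 had 17786 UMIs in 2325 cells, 159 of which held 50% of them. Psca had 8640 UMIs in 1321 cells and 125 held 50%. Gkn2 had 21242 UMIs in only 671 cells and 24 held 50%, with 51 cells above 100 UMIs and a highest cell of 1723. Hnf4a had 312 UMIs in 152 cells, at most 12 in any of them. Gkn2 was thus held by the fewest cells for its number of UMIs, with a median of 2 UMIs in cells that had any and the richest 1% of all cells holding 89.3% of them.

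The cell with the most Gkn2 was not keratin-high but a Lyz2-reduced ATII cell, with 1723 Gkn2 UMIs beside 8260 of Sftpc and 17 of Nkx2-1 in a total of 74329. Both cells that tied for the most Hnf4a, at 12 UMIs, were keratin-high. One held 599 UMIs of Gkn2, 174 of Phgr1 and 62 of Psca, and the other 226, 19 and 10. The cell with the most Psca held 144 UMIs of it and none of Gkn2, Phgr1 or Hnf4a.

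**Figure D3:**
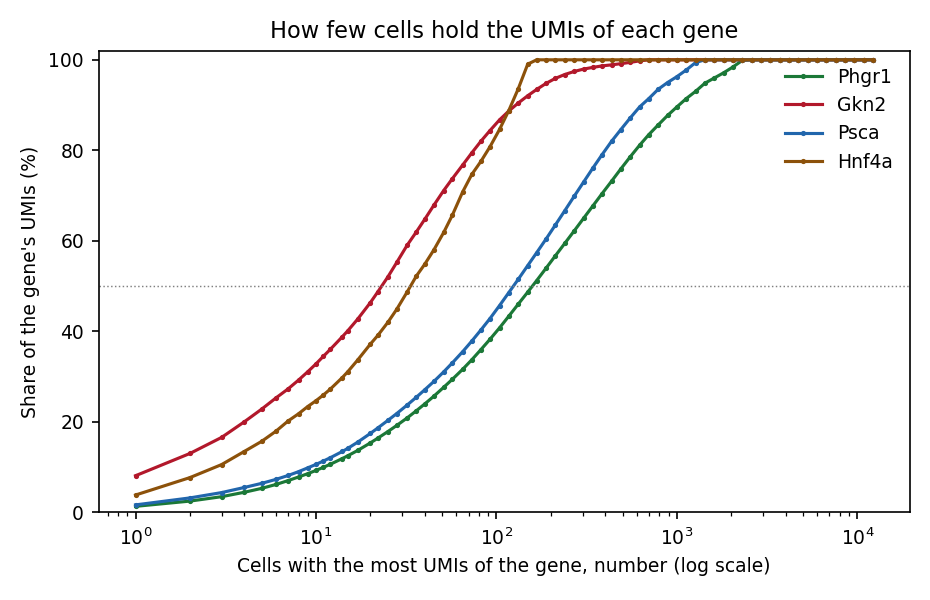
Share of the UMIs of each gene (vertical axis, %) held by the cells with the most UMIs of it (horizontal axis, number of cells, log scale) among 12183 cells; the dotted line marks 50%. That line is reached at 24 cells for Gkn2, 34 for Hnf4a, 125 for Psca and 159 for Phgr1.

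Cells rich in a member can be described by what else they held. The 202 cells with 10 or more Gkn2 UMIs were keratin-high in 51.5% of cases, against 9.71% of all cells kept, and the 242 with 10 or more Psca UMIs in 57.4%. The 426 cells with 10 or more Phgr1 UMIs were keratin-high in 14.3% only, and 301 of them were ATII cells, with median Sftpc of 1326 per 10000. Of the 35 cells with 3 or more Hnf4a UMIs, 24 were keratin-high. These cells were deep, with medians of 38974 UMIs for Gkn2, 29344 for Psca, 33916 for Phgr1 and 49792 for Hnf4a. The part of depth in these shares was not tested.

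Nkx2-1, the lung transcription factor, was present throughout. It was at 361 CPM in keratin-high and 338 in ATII cells. Of the Gkn2-rich cells 98.0% held an Nkx2-1 UMI, of the Psca-rich 98.8%, of the Phgr1-rich 99.3% and of the Hnf4a-rich 97.1%, against 92.5% of all cells kept at their lower depth. Its median level was 2.87 per 10000 in Gkn2-rich cells, 4.06 in Psca-rich and 2.29 in Hnf4a-rich cells, beside 3.51 in keratin-high cells as a whole. Gkn2 and Hnf4a were thus found in cells that had Nkx2-1 transcript.

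The members met in the same cells to unequal degrees. After thinning, 52 keratin-high cells held both Phgr1 and Gkn2, where the product of the shares gives 17.5, a ratio of 2.98. Gkn2 and Psca shared 55 cells against 34.9, and Phgr1 and Psca 54 against 35.5. Psca and Hnf4a shared 2 against 5.36. Gkn2 and Hnf4a shared 7 against 2.64 and Phgr1 and Hnf4a 7 against 2.68. Over all cells kept, which pools classes that differ in both genes, Gkn2 and Hnf4a shared 15 cells against 1.18, which were 15 of the 38 cells with Hnf4a and of the 345 with Gkn2. The pairs of Phgr1, Gkn2 and Hnf4a thus met more often than the product of shares, and Psca met Hnf4a at the lowest ratio in keratin-high cells, on very few cells.

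Of 12897 genes with a UMI in at least 1% of cells, those whose log level ran most like Gkn2 over the 12183 cells were Pthlh (Pearson r = 0.43), which encodes a parathyroid hormone-like peptide, Gzme (0.43), a granzyme gene, Prss22 (0.38), Itga2 (0.37), an integrin gene, and Itih2 (0.31). For Hnf4a they were Gpa33 (0.41), an intestinal surface antigen gene, Syt8 (0.37), Itga2 (0.36), Fhl2 (0.31) and Prss22 (0.31). Itga2 and Prss22 were on both lists. The genes most like Psca were S100a6 (0.37), S100a14 (0.36), Clu (0.35), Krt7 (0.35) and Tpm2 (0.34). Krt7 is itself a keratin gene. Those most like Phgr1 were Tgfbi (0.30), Pmvk (0.29), Il33 (0.28), Oit1 (0.26) and Ptprn (0.26). These correlations are weak, share depth and pooled mice, and are given as a description.

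The wider gut and stomach lists placed the members among genes of like origin. Of 18 gastric genes, 12 reached 1 CPM in keratin-high or ATII cells, 5 of them through keratin-high cells alone; 10 were at least 2-fold higher in keratin-high cells and 1 lower, beside 16.4% and 6.83% of all genes. Without Gkn2 and Psca, which were chosen for this contrast, 8 of 10 were higher. Among these 8, Cldn18 (2.83-fold) is also an ATI marker used here, at 3195 CPM in ATI, 1961 in keratin-high and 694 in ATII cells. Genes that reached 1 CPM through keratin-high cells alone had to be higher there, so these counts are a description. Tff1, a trefoil peptide of the stomach surface, was at 67.4 CPM in keratin-high and 0.0557 in ATII cells, but its 2093 UMIs lay in 33 cells. Anxa10, an annexin gene of stomach epithelium, was at 18.2 against no UMI in ATII cells, at least 981-fold higher against a floor of 3 UMIs over the ATII cells, where the exact interval of the ratio begins at 795. Ctse, cathepsin E, was at 41.3 against 1.21. Tff2 was at 4.83 against 0.0186, with 148 of its 157 UMIs in 1 cell, and Gkn1, the gene of gastrokine 1, at 1.34 against 0.0186 (72.0, 23.0 to 363, from 41 and 3 UMIs). Muc1, a mucin also made by lung epithelium, was the gene 2.61-fold lower. Muc5ac and Muc6, the main gastric mucins, stayed under 1 CPM in both classes.

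Of 23 intestinal genes, 9 were measured in this sense, 4 of them through keratin-high cells alone, and 7 were at least 2-fold higher in keratin-high cells, none of them a member, again beside 16.4% of all genes. Agr2, needed for mucin folding, was at 6.26 against 0.00619, yet 191 of its 192 keratin-high UMIs came from 1 cell, the one that also held the 148 Tff2 UMIs and 291 of Tff1. Without that cell Agr2 would rest on 1 UMI. Krt20 was at 1.99 against no UMI, at least 107-fold higher by the same floor, with an interval that begins at 84.5. Vil1, the villin gene, was at 1.40 against 0.223, Misp at 5.38 against 0.922 and Gpa33 at 9.55 against 1.91. Cdx1 and Cdx2, the intestinal master regulators, and Tff3 and Slc26a3 had no UMI in any cell kept.

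Of 17 endoderm transcription factors, 11 were measured, 3 of them through keratin-high cells alone, and 4 were at least 2-fold higher in keratin-high cells (3 of 10 without Hnf4a, beside 16.4% of all genes), namely Hnf4a, Sox21 (3.39 against 0.452), Pdx1 (1.14 against 0.217) and Foxa3 (8.31 against 2.59). Hnf4g had no UMI in any cell kept. The median log2 ratio was 4.15 over the measured gastric, 2.32 over the intestinal and 0.70 over the endoderm factor genes, with genes at no UMI in ATII cells set to their bound, beside 0.35 over all genes tested. These medians include the members and the genes measured only through keratin-high cells, and nothing is read from their height.

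**Figure D4:**
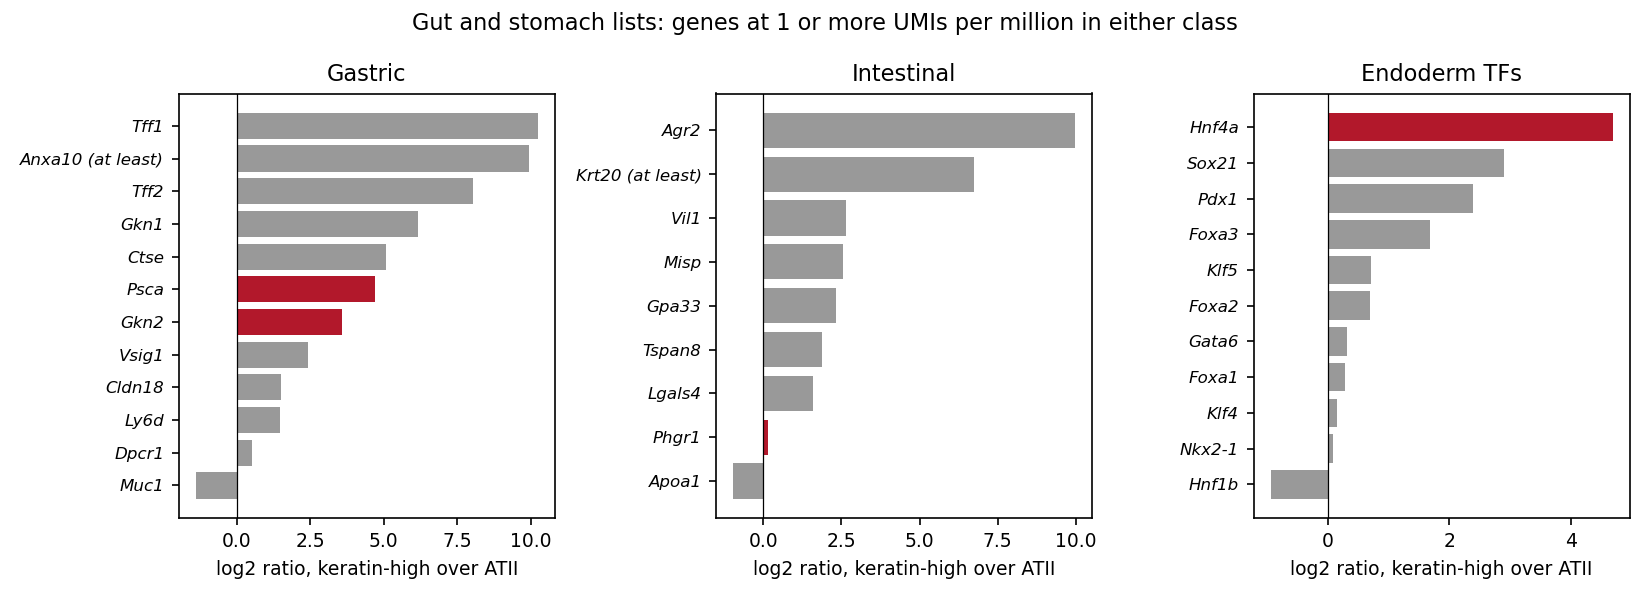
log2 ratio of CPM, keratin-high over ATII cells, for the genes of the gastric, intestinal and endoderm transcription factor (TF) lists at 1 or more CPM in either class; red bars are Phgr1, Gkn2, Psca and Hnf4a, and bars marked "at least" are set to the bound from a floor of 3 UMIs. Phgr1 sits near 0 at 0.14 and Nkx2-1 at 0.09, while Tff1 and Anxa10 stand highest among the gastric genes.

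GFP and Stk11 transcripts divided the cells in another way. A GFP UMI without a Stk11 UMI was found in 3360 cells, a Stk11 UMI without GFP in 3367, both in 29 and neither in 5427. These are cells with a transcript detected and not the labelled mice, and they could come from any of the 6. Median depth was 24517 UMIs in GFP and 23635 in Stk11 cells. Keratin-high cells made up 19.1% of GFP cells and 4.90% of Stk11 cells, so values within a class are given beside the pooled ones.

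Pooled over all cells kept, GFP cells held more of 3 members. Phgr1 was at 117 against 28.8 CPM (ratio 4.06, 3.88 to 4.24), Gkn2 at 134 against 33.9 (3.96, 3.80 to 4.12) and Psca at 50.5 against 17.4 (2.90, 2.74 to 3.08). Hnf4a was at 1.36 against 1.37 (0.991, 0.763 to 1.29). Of 12445 genes, 4.64% were at least 2-fold higher in GFP cells and 5.46% at least 2-fold lower.

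Phgr1 was the member for which both ATII and keratin-high cells gave the pooled direction. In ATII cells it was at 148 CPM in GFP and 26.8 in Stk11 cells (5.51, 5.22 to 5.82), where 4.65% of genes were at least 2-fold higher and 1.33% lower. In keratin-high cells it was at 82.1 against 16.6 (4.95, 3.94 to 6.30), where 5.8% of genes were at least 2-fold higher and 4.9% lower. Within ATII cells the gap was wider in Lyz2-high cells, at 169 against 18.3 CPM (9.22, 8.52 to 9.99), than in Lyz2-reduced cells, at 134 against 44.3 (3.03, 2.82 to 3.26). The thinned shares moved with the levels, at 22.7% of GFP and 4.42% of Stk11 ATII cells, and 15.9% (13.2 to 19.0) against 0.613% (0.0155 to 3.37, 1 of 163 cells) of keratin-high cells, the last of which is not told apart from background. Thinned to 2000 UMIs the keratin-high shares were 8.13% and 2.42%, and without thinning 33.8% and 12.7%. The keratin-high log2 ratio of 2.31 went to 3.44 without the 2% of cells with the most UMIs and to 1.52 with at most 10 UMIs counted per cell. The ATII one of 2.46 went to 3.18 and 2.44. In ATI cells, where 5.62% of genes were at least 2-fold higher and 4.08% lower, the level ran the other way, at 9.86 against 23.3, but 1 Stk11 cell held 44 of 103 UMIs and the thinned shares were 3.36% and 2.33%, with intervals that overlapped.

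Gkn2 was higher in GFP cells of the keratin-high class, and no direction is given for it in ATII cells. In keratin-high cells it was at 491 CPM in GFP cells against 34.5 in Stk11 cells (14.3, 12.2 to 16.8). It was found in 161 of 642 GFP cells and 6 of 165 Stk11 cells, and after thinning in 16.2% and 1.84%. The second share (0.381 to 5.28) overlapped the interval of the reference cells (0 to 1.34). In Stk11 cells 1 cell held 133 of the 160 UMIs, and without the top cell of each class the levels were 441 and 5.88. In ATII cells the level was 17.0 CPM in GFP cells against 36.2 in Stk11 cells (2.12-fold, 1.96 to 2.30). The thinned shares there were 1.91% (1.32 to 2.67) and 1.67% (1.19 to 2.28), with intervals that overlapped. Without thinning the share ran against the level, at 5.57% (4.54 to 6.75) of GFP and 3.40% (2.70 to 4.21) of Stk11 cells, and 50% of the UMIs lay in 2 GFP cells and 5 Stk11 cells. Without the 2% of cells with the most UMIs the log2 ratio went from -1.09 to -0.12, with an interval that includes 0 (-0.27 to 0.028), and with at least 2 UMIs of GFP or Stk11 asked for it went to -2.21.

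Psca was higher in GFP cells of the ATII class, and no direction is given for it in keratin-high cells. In ATII cells GFP cells were higher, at 9.58 against 2.44 CPM (3.92, 3.26 to 4.74), with thinned shares of 3.35% and 1.29%, the second of which is not told apart from background. In ATI cells they were at 55.0 against 39.2 (1.40, 1.15 to 1.72), with shares of 9.24% and 9.34%, and 1 GFP cell held 54 of 240 UMIs. In keratin-high cells they were at 125 against 187 (1.50-fold, 1.38 to 1.62), with shares of 23.3% (20.1 to 26.8) and 27.0% (20.3 to 34.5) that overlapped. The unthinned shares there were 37.7% and 37.6%, and 8 Stk11 cells held 50% of their Psca UMIs. GFP and Stk11 cells were also given the same class weights, namely the UMIs of each class, and of the unclassed cells, among all cells kept. This brought the pooled log2 ratio of Psca from 1.54 to 0.32.

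The level of Hnf4a was lower in GFP cells of the keratin-high class, and about equal when pooled. In keratin-high cells it was at 5.54 CPM in 46 of 642 GFP cells and 13.8 in 26 of 165 Stk11 cells (2.49-fold lower, 1.80 to 3.42). The thinned shares of 1.10% (0.445 to 2.26) and 4.91% (2.14 to 9.44) overlapped, and the first is not told apart from background. Before thinning the shares were 7.17% (5.29 to 9.44) and 15.8% (10.6 to 22.2), and no reference cell held it (0 to 1.00%). In ATII cells GFP cells had 1 UMI and Stk11 cells 28, and after thinning 0 of 1729 and 3 of 2331 cells held it, which is under the limit from the reference cells, so no fold is given. In cells of no class the level was 0.603 against 1.73 but the thinned shares were 0.568% and 0.365%, also under that limit, where 4.07% of genes were at least 2-fold higher and 14% lower. With the same class weights in GFP and Stk11 cells, the pooled log2 ratio went from -0.01 to -1.54. The equal pooled levels thus came with 19.1% of GFP cells but 4.90% of Stk11 cells in the class where Hnf4a was high.

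**Figure D5:**
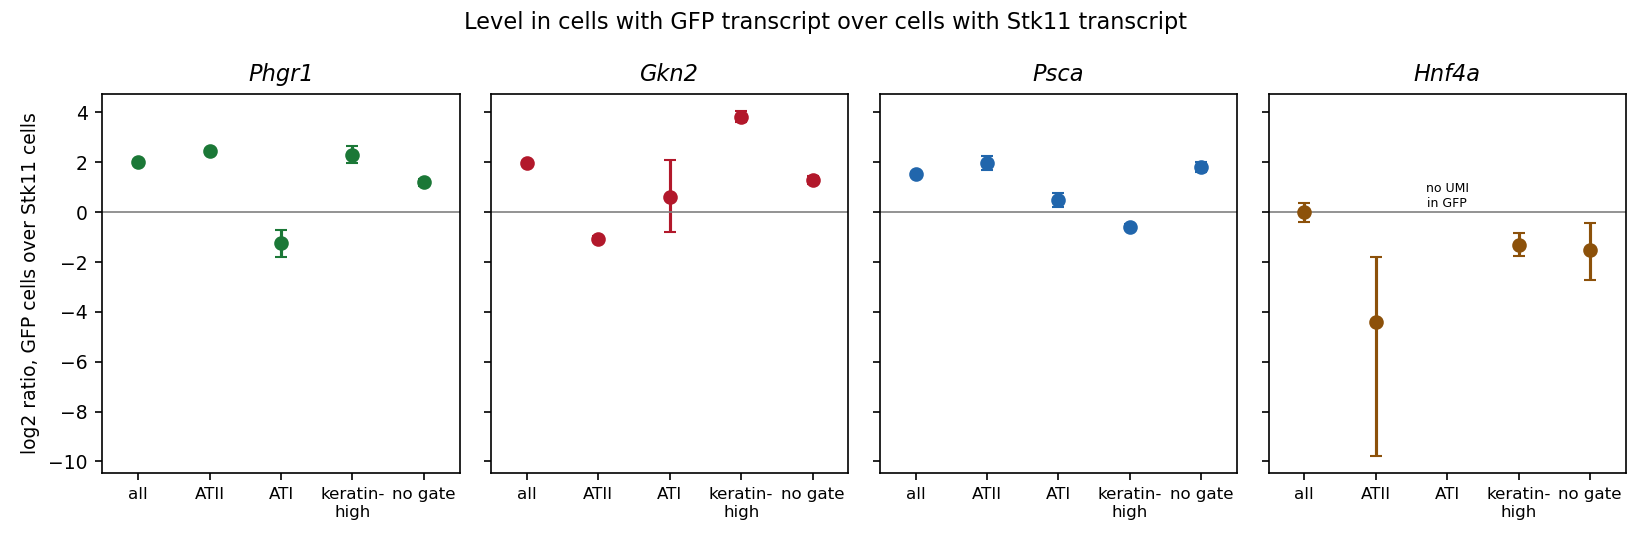
log2 ratio of the level in cells with a GFP UMI and no Stk11 UMI over cells with the reverse, for each gene (panels) in all cells kept, ATII, ATI, keratin-high and unclassed cells; points are pooled ratios, bars exact 95% intervals, and Hnf4a had no UMI in GFP cells of the ATI class. Phgr1 is above 0 in ATII and keratin-high cells, Gkn2 is above 0 in keratin-high cells and below 0 in ATII cells, where few cells hold its UMIs, and Hnf4a is below 0 in keratin-high cells, while its ATII point rests on 1 UMI in GFP cells.

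The list genes of keratin-high cells were also read against GFP and Stk11, at 1 or more CPM in either. Leaving out the members, 4 of 10 gastric genes were at least 2-fold higher in GFP and 2 in Stk11 cells, 1 and 5 of 8 intestinal genes, and none and 2 of 11 endoderm factors, beside 5.8% and 4.9% of all genes. Most of these rest on few cells. On the GFP side were Dpcr1, at 2.37 against 0.646 CPM, Tff1, at 83.8 against 1.29 CPM in 12 GFP and 2 Stk11 cells, Gkn1, with 23 UMIs in 7 GFP cells and none in Stk11 cells, and Tff2 and Agr2, each from 1 cell as above. On the Stk11 side were Cdhr2, Gata5, Vil1, at 0.503 against 6.25, Misp, at 3.47 against 13.1, Anxa10, at 2.11 against 104 in 11 and 22 cells, Gpa33, at 0.755 against 48.7 in 6 and 30 cells, Ctse, at 21.6 against 144 in 111 and 47 cells, and Krt20, at 0.403 against 10.6 in 3 and 10 cells, or 5.86 for the latter without its top cell. Pdx1, a transcription factor of the distal foregut, had 1 UMI in GFP cells and 30 UMIs in 12 Stk11 cells. Nkx2-1 was at 367 against 274. Which tumours or mice these cells came from is not known here, and cells of 1 tumour could make up any of these counts.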

How the data were processed

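The deposited file is 1 matrix of raw counts, whole UMIs per gene and cell, that the authors made from pooled 10x 3′ (v3) libraries of 6 mice. The authors aligned reads to mm10 and counted UMIs in Cell Ranger 3.0.2, a version that the matrix header names. GFP and TdTomato were among the features. The matrix gives no mouse for a cell, so it was treated as 1 sample, restored and non-restored mice were not tested against each other, and no test was run. Where several cells come from 1 tumour they are not independent.

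Barcodes with under 500 genes (2081) or, of the rest, over 20% mt- UMIs (1753) were left out. No doublet caller was run. Levels (CPM) are UMIs summed over a class per 1000000 UMIs of that class, so fewer molecules in every cell and fewer cells with the gene are told apart only by the share of cells with a UMI. Shares were taken after thinning each cell to 5000 UMIs (seed 42). Intervals are exact at 95%. Zero counts were given a floor of 3 UMIs. Folds were counted at 2-fold over genes at 1 or more CPM in either class. Reference cells had no Epcam UMI, keratin under 50, and immune or endothelial genes at 10 or more or collagen genes at 20 or more per 10000. Strand handling in counting is as in Cell Ranger, and its settings are not given in the sources used here.

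The members and the gene lists were chosen with earlier results of these data known. Named list genes are the 2 to 4 with the largest absolute log2 ratio (keratin-high over ATII) among those measured, and the 5 genes most like each member by Pearson r of log(1 + UMIs per 10000). Ctse, Gpa33, Muc1, Cldn18, Muc5ac, Muc6, Cdx1, Cdx2, Tff3, Slc26a3, Hnf4g and, in the GFP comparison, Dpcr1, Cdhr2, Gata5 and Pdx1 were named after their values were seen. Alternatives covered cell filters, weighting, totals, class limits and thinning. Some items are not reported here. The code was tested on simulated data. Python 3.11.15, NumPy 2.4.6, SciPy 1.17.1 and pandas 2.3.3 were used.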

Additional observations from a re-analysis of the deposited data

How the results depend on the processing

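Values here are log2 ratios unless they are called shares. For keratin-high over ATII cells, the ratios with cells weighted equally were -0.077 for Phgr1, 3.65 for Gkn2 and 4.83 for Psca. With totals that leave out mt- genes and Sftpc they were -0.12, 3.31 and 4.46, and without the 2% deepest cells 0.0019, 4.27 and 4.87. A keratin limit of 100 gave 0.34, 4.18 and 5.11, and values relative to the median gene were -0.21, 3.22 and 4.36. A keratin limit of 30 gave 0.48 for Phgr1, 3.82 for Gkn2 and 4.20 for Hnf4a. Gkn2 was 3.51 at a mitochondrial limit of 10%. Without the cell with the most UMIs of the gene in each class Phgr1 was 0.064 and Gkn2 3.98, and with at most 10 UMIs counted per cell Gkn2 was 2.97 and Psca 3.89. Gkn2, Psca and Hnf4a stayed higher in keratin-high cells under every alternative run, and Phgr1 turned under 3. None of these alternatives split the cells by GFP or Stk11 transcript, and the Gkn2 excess was not found in Stk11 cells.

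For GFP over Stk11 cells, Phgr1, Gkn2 and Psca were 2.49, 2.28 and 0.95 with cells weighted equally, 1.92, 1.88 and 1.43 with the reduced totals, 2.45, 2.29 and 1.39 without the deepest cells, 1.74, 1.72 and 1.80 when 2 UMIs of GFP or Stk11 were asked for, 2.11, 2.05 and 1.28 with the classes read after thinning, and 1.82, 1.78 and 1.33 relative to the median gene. Without the top cells Phgr1 was 2.09 and Gkn2 2.08, and with at most 10 UMIs per cell 2.11 and 1.61. With the same class weights in GFP and Stk11 cells Gkn2 was 1.23, Psca 0.32 and Hnf4a -1.54. Within ATII cells the alternatives ranged from 2.12 to 3.18 for Phgr1, -2.21 to -0.12 for Gkn2 and 1.55 to 2.30 for Psca, and Hnf4a, with 1 UMI in GFP cells, is not given. Within keratin-high cells they ranged from 1.52 to 3.44 for Phgr1, 3.04 to 6.23 for Gkn2, -1.11 to -0.23 for Psca and -1.59 to -1.17 for Hnf4a.

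For Lyz2-reduced over Lyz2-high cells, Phgr1 and Gkn2 were 0.87 and 2.14 at a Lyz2 limit of 50, 0.80 and 1.12 at 200, and 0.91 and 1.12 with at most 10 UMIs per cell. Gkn2 was 1.47 without the top cells. Shares of keratin-high cells with Phgr1, Gkn2, Psca and Hnf4a were 7.11%, 9.33%, 15.9% and 0.889% after thinning to 2000 UMIs and 25.5%, 18.3%, 37.4% and 7.52% without thinning. The cause of these shifts was not tested.

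The alternatives on top cells, on the UMIs counted per cell, on the median gene and on the weighting of classes were chosen after seeing the data. No paired analysis was possible because the matrix gives no mouse for a cell, and for the same reason no mouse was left out. Depth limits Hnf4a above all, whose levels outside keratin-high cells rest on 17, 27 and 5 UMIs in Lyz2-high, Lyz2-reduced and ATI cells.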

Other observations

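The 3069 cells in no class held intermediate levels, with Phgr1 at 61.8 (59.7 to 64.0), Gkn2 at 54.9 (52.9 to 57.0), Psca at 45.9 (44.1 to 47.8) and Hnf4a at 0.910 (0.669 to 1.21) CPM. These cells are mixed: the 4 fibroblast markers summed to 3533 CPM and the 4 club cell markers to 3188, against 10.0 and 16.5 in keratin-high cells. The cell with the most Phgr1 was among them, with 239 UMIs of Phgr1 and 267 of Gkn2. Cells with GFP in no class held 2.29 times the Phgr1 and 2.43 times the Gkn2 of those with Stk11. For Gkn2, 1 Stk11 cell held 258 of 461 UMIs, and without the top cell of each the levels were 66.5 and 14.7 CPM.

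The 29 cells with both GFP and Stk11 UMIs held Phgr1 at 286 (254 to 322) and Gkn2 at 417 (378 to 460) CPM, in 10 and 7 cells. Of the 405 Gkn2 UMIs, 393 lay in 1 cell, and without the top cell of each gene the levels were 12.8 for Gkn2 and 200.1 for Phgr1. The 29 cells had a median depth of 31886 UMIs, and 3 of them were keratin-high. Their origin was not tested.

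One keratin-high cell with 33103 UMIs held 291 UMIs of Tff1, 191 of Agr2, 148 of Tff2, 86 of Lgals4, 46 of Phgr1 and 31 of Psca, with 10 of Sftpc, 2 of Nkx2-1 and no Gkn2. It carried 70.7% of all Agr2 and 94.3% of all Tff2 UMIs of the cells kept.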
